A study of Homo sapiens with 6 samples.

Results

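The triple-negative human breast cancer line MDA-MB-231 was transfected with siRNA against SAM68 or with a non-targeting control siRNA, and its polyadenylated RNA was sequenced. Sam68, encoded by KHDRBS1, is an RNA-binding protein of the STAR family that regulates splicing. The described genes are 60 genes of the cell cycle machinery (cyclins, cyclin-dependent kinases, their inhibitors, the pocket proteins and E2F factors, replication licensing genes and mitotic regulators), found by gene symbol among the 74852 loci of the deposited expression table. Each of the 60 was found at 1 locus, and 59 of them were among the 18849 loci that averaged 10 or more normalized reads over the 6 libraries. The remaining gene, CCND2, which encodes cyclin D2, lay between 1.94 and 7.36 normalized reads and was not tested.

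There were 3 si-CTRL and 3 si-SAM68 libraries. All 6 came from the same cell line, which had gone through 2 rounds of transfection with lipid carrier and was harvested 24 h after the second round. The siRNAs were pools according to the methods of the study, so that the effect of a single siRNA cannot be told apart here, and no untransfected cells were used here. The labels call the libraries separate samples but do not say whether they came from separate cultures, so the p-values measure the spread between these samples. With 3 against 3 libraries, an exact permutation test of a single gene cannot give a p below 0.1, and p-values here therefore come from 1 limma fit across all 18849 loci, adjusted over all of them by the Benjamini-Hochberg method.

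The libraries held between 52625492 and 82568487 reads on the listed loci. Throughout, values per library are in the order of replicates 1, 2 and 3. KHDRBS1 had 15660, 14483 and 14737 normalized reads under si-CTRL but 583, 602 and 670 under si-SAM68, 95.9% lower. Markers of the cell line (VIM, CD44, ZEB1, KRT8 and KRT18) were present, and ESR1, PGR, CDH1 and EPCAM did not exceed 15.2 normalized reads in any library, whereas GATA3, listed with them, lay between 331 and 542. Of the markers of other cell types, PTPRC, CD3E and ALB did not exceed 13.6, PECAM1 lay between 6.04 and 16.2 and CDH5 between 11.2 and 42.5, and CD68 could not be read because its locus joins it to other genes. Of the libraries, 2 stood apart. The share of an rRNA locus was 15.1% in si-SAM68 replicate 2, against 1.83% to 3.17% in the other 5. The second, si-CTRL replicate 1, was the library farthest from its group mean for 37 of the 59 tested genes. This was not particular to these genes. Over all tested loci its median absolute deviation was 0.148 on the log2 scale, against 0.0663 to 0.0997 in the other 5, and it had the fewest reads. Calls that changed without either of these 2 libraries are given where they occur or at the end. Many, but not all, of the larger shifts of fold changes without si-CTRL replicate 1 are given too.

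The cell cycle is driven by cyclins that activate their partner kinases in turn. D-type cyclins with CDK4 and CDK6 start to phosphorylate the retinoblastoma protein in G1, cyclin E with CDK2 completes this step and starts S phase, and cyclins A and B with CDK1 carry the cell into mitosis. Hypophosphorylated pocket proteins keep E2F factors from switching on the genes of DNA replication, and CDK inhibitors of the Cip/Kip and INK4 families hold the kinases back. MDA-MB-231 cells are known to lack CDKN2A and to carry a mutant p53.

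Of the 59 tested genes, 8 changed at an adjusted p under 0.05 (limma), 3 being higher and 5 lower in si-SAM68 cells. WEE1 and CCNE2 were the most increased and CCNE1 and CDKN1A the most decreased. In the same limma fit, these 4 were also the genes that passed the thresholds of the study, an unadjusted p up to 0.05 with a change of 1.5-fold or more. The study applied these thresholds in its own analysis, and its list of regulated genes is not used here. The 8 genes are 13.6% of those tested, beside 10.7% of all tested loci (4.47% higher, 6.23% lower). Among well covered loci, with a mean of at least 1000, 12.6% of all were called and 6 of 55 cell cycle genes were. The share of genes past the unadjusted p and the fold threshold was 7.67% over all loci. The count of called genes therefore lay near the background. At an unadjusted p under 0.05 the set held 26 genes (44.1%), 14 higher and 12 lower, beside 27.0% of all loci. In 30 genes (50.8%) the values of the groups did not overlap, 16 being higher and 14 lower, beside 16.6% of all loci higher and 17.3% lower. These last shares of all loci were not matched for level. A mean of at least 1000 was found for 55 of the 59 genes but for 7991 of all 18849 loci. The shares of all loci set beside smaller groups of genes below were not matched for level either. The median log2 fold change of the 59 genes was 0.01, as was that of all loci, and its middle 50% ran from -0.15 to 0.20.

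**Figure D1:**
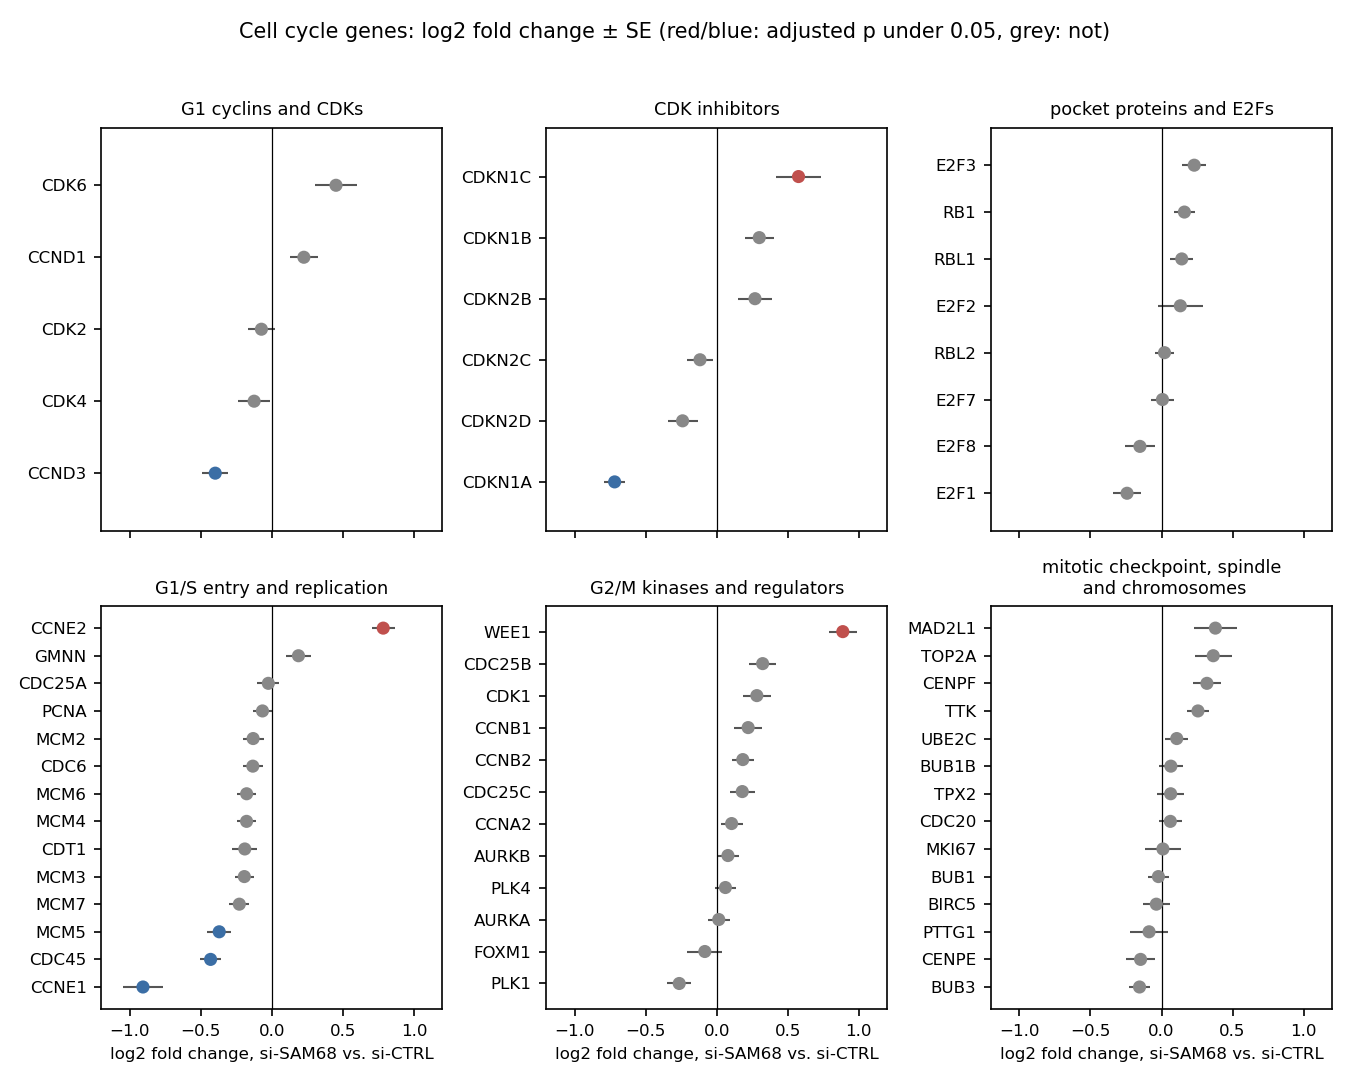
Log2 fold change in si-SAM68 vs. si-CTRL cells for the 59 tested cell cycle genes, in 6 panels by role; points are limma estimates, horizontal bars their standard errors, and red and blue mark genes that rose or fell at an adjusted p under 0.05. Coloured points lie at both ends of the axis (CCNE1 at -0.91, WEE1 at 0.89), whereas the mitotic panel holds none.

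Of the 5 tested G1 cyclins and their kinases, 1 was called. CCND3, encoding cyclin D3 (hg19, chr6:41902671-42016632), had 1722, 1570 and 1480 normalized reads in the si-CTRL libraries and 1268, 1130 and 1219 in the si-SAM68 libraries. The groups did not overlap, and CCND3 fell by 0.40 on the log2 scale (SE 0.09, limma adjusted p = 0.0247). This call depended on the libraries used and was lost without si-CTRL replicate 2 or without any one of the si-SAM68 libraries, with a highest adjusted p of 0.118. It was also lost in a limma fit without the trend option (adjusted p = 0.0721). CCND1, encoding cyclin D1, had 3657, 2853 and 2928 normalized reads in si-CTRL cells and 3624, 3749 and 3591 in si-SAM68 cells. Only si-CTRL replicate 1 reached the level of the si-SAM68 libraries. The log2 fold change of CCND1 was 0.23 (SE 0.10, limma adjusted p = 0.185), and 0.34 without that library, where it passed the threshold. The CCND1 locus overlaps ORAOV1, whose mean was 1538 normalized reads.

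CDK4, a kinase partner of D-type cyclins, shares its locus with a miRNA gene. It had 10914, 15205 and 14077 normalized reads in si-CTRL cells and 12791, 11885 and 11848 in si-SAM68 cells, with a log2 fold change of -0.13 (SE 0.11, limma adjusted p = 0.523). The lowest and the highest value were both in si-CTRL libraries. Without si-CTRL replicate 1 the log2 fold change was -0.27 and passed the threshold. CDK6, the other partner of D-type cyclins, lay between 1016 and 1383 in si-CTRL and between 1455 and 2047 in si-SAM68 cells without overlap (log2 fold change 0.45, limma adjusted p = 0.0857). CDK2 had a log2 fold change of -0.07, and one of 0.017 without si-CTRL replicate 1.

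Of the 6 CDK inhibitors, 2 were called (33.3%, beside 10.7% of all loci), CDKN1A being lower and CDKN1C higher in si-SAM68 cells. CDKN1A, encoding p21, the Cip/Kip inhibitor that p53 induces (chr6:36644237-36655114), had 6000, 5526 and 5967 normalized reads in the si-CTRL libraries and 3472, 3554 and 3599 in the si-SAM68 libraries. All si-SAM68 values lay far below all si-CTRL values. CDKN1A fell from 5831 ± 265 to 3542 ± 64.8 normalized reads (mean ± SD, n = 3 each), which is 39.3% lower, with a log2 fold change of -0.72 (SE 0.07, limma adjusted p = 0.000686). CDKN1B, encoding p27, had 3263, 4200 and 4081 normalized reads in si-CTRL cells and 4757, 4509 and 4864 in si-SAM68 cells. These groups did not overlap either, but in the other direction, and the log2 fold change of 0.30 (SE 0.10) did not pass the test (limma adjusted p = 0.0918). Without si-CTRL replicate 1, its lowest library, the log2 fold change of CDKN1B was 0.19.

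CDKN1C, encoding p57, the third Cip/Kip inhibitor (chr11:2904450-2907003), had 151, 228 and 195 normalized reads in si-CTRL and 290, 263 and 293 in si-SAM68 cells. It rose by 0.58 on the log2 scale (SE 0.16, limma adjusted p = 0.0475). The call was lost with the replicate number as a block (adjusted p = 0.0700), in edgeR (adjusted p = 0.0530) and in 5 of the 6 fits that left out a library. Its log2 fold change was 0.42 without si-CTRL replicate 1. The INK4 inhibitors were not called. CDKN2B (p15) had a log2 fold change of 0.27, beside 0.38 (limma adjusted p = 0.0356) for the overlapping locus of CDKN2B-AS1 and MTAP, whereas CDKN2D (p19) and CDKN2C (p18) had values of -0.24 and -0.12. The locus of CDKN2B-AS1 and MTAP spans the whole CDKN2B locus and had a mean of 11286 normalized reads, beside 1503 for CDKN2B.

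The pocket proteins and E2F factors, 8 genes, held no call by limma, edgeR or DESeq2. Of them, 2 had an unadjusted p under 0.05 (25.0%, beside 27.0% of all loci). RB1, encoding the retinoblastoma protein, had 6535, 6773 and 6612 normalized reads in si-CTRL cells and 6930, 7425 and 7951 in si-SAM68 cells. The groups did not overlap, but the log2 fold change was 0.16 (SE 0.08, limma adjusted p = 0.207). E2F1, an activator of S phase genes, had 2785, 2600 and 2971 normalized reads in si-CTRL cells and 2655, 2293 and 2132 in si-SAM68 cells. Here si-SAM68 replicate 1 lay within the si-CTRL range, and the log2 fold change was -0.24 (SE 0.10, limma adjusted p = 0.149). E2F3, another activator, had a log2 fold change of 0.23, and the other 5 (E2F2, E2F7, E2F8, RBL1 and RBL2) lay between -0.15 and 0.14. Without si-CTRL replicate 1, E2F2 went from 0.13 to 0.23 and E2F8 from -0.15 to -0.034.

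The 2 genes for cyclin E, the partner of CDK2 at S phase entry, changed in opposite directions. CCNE1 (chr19:30302901-30315224) had 446, 356 and 415 normalized reads in the si-CTRL libraries and 219, 189 and 241 in the si-SAM68 libraries. CCNE2 (chr8:95892461-95907482) had 1437, 1355 and 1512 normalized reads in the si-CTRL libraries and 2418, 2410 and 2582 in the si-SAM68 libraries. In neither gene did the groups overlap. CCNE1 fell from 406 ± 45.6 to 216 ± 26.4 normalized reads, 46.8% lower (log2 fold change -0.91, SE 0.14, limma adjusted p = 0.00419). CCNE2 rose from 1435 ± 78.8 to 2470 ± 96.8, a 1.72-fold increase (log2 fold change 0.78, SE 0.08, limma adjusted p = 0.000778).

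The log2 count of CCNE2 minus that of CCNE1 was 1.69, 1.92 and 1.86 in the si-CTRL libraries and 3.46, 3.67 and 3.41 in the si-SAM68 libraries, a shift of 1.69 between the group means. Since the counts are not divided by gene length, the shift between groups can be read but not the difference of levels between both genes. The end of the CCNE2 locus overlaps that of INTS8, which encodes a subunit of the Integrator complex. INTS8 had a mean of 3584 normalized reads and was also higher in si-SAM68 cells, with a smaller log2 fold change of 0.38 (limma adjusted p = 0.0297). How strand was used in counting is not given in the sources used here, so the reads of the shared stretch could not be assigned to either gene, and their part in the CCNE2 value was not tested.

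**Figure D2:**
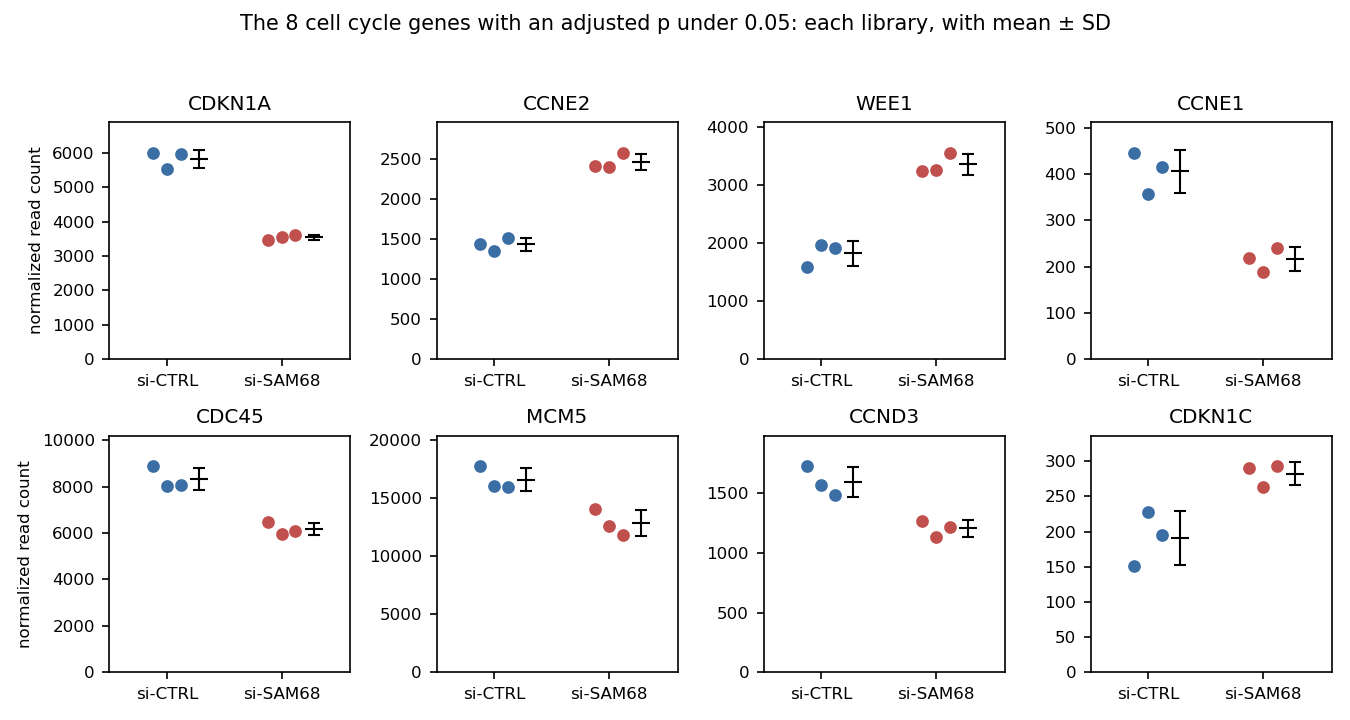
Normalized read counts of the 8 called genes in each of the 3 si-CTRL (blue) and 3 si-SAM68 (red) libraries, with the mean ± SD of each group in black; each panel has its own axis starting at 0. The groups do not overlap in any of the 8 panels, and CDKN1A, CCNE1, CDC45, MCM5 and CCND3 are lower while CCNE2, WEE1 and CDKN1C are higher in si-SAM68 cells.

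Most replication genes had lower means in si-SAM68 cells. Of the 14 genes of S phase entry and replication (both cyclin E genes, CDC25A, the licensing factors CDC6 and CDT1, the CDT1 inhibitor GMNN, CDC45, MCM2 to MCM7 and PCNA), 12 had a negative log2 fold change, with a median of -0.18 for the 14, and 3 of these 12 passed the test. With CCNE2, 4 of the 14 were called (28.6%, beside 10.7% of all loci). CDC45, part of the helicase that unwinds DNA at the fork (chr22:19467349-19508134), had 8866, 8007 and 8062 normalized reads in si-CTRL cells and 6454, 5960 and 6066 in si-SAM68 cells. It fell by 0.43 on the log2 scale (SE 0.08, limma adjusted p = 0.00811), with no overlap between the groups. Leaving out si-SAM68 replicate 2 brought its adjusted p to 0.0502.

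MCM2 to MCM7 form the hexameric core of the same helicase, and all 6 had lower means in si-SAM68 cells, with log2 fold changes between -0.37 and -0.13. Over all loci, 27.0% had an unadjusted p under 0.05 and 17.3% were lower without overlap. In 5 of the 6 genes (MCM3 to MCM7) the groups did not overlap and the unadjusted p was under 0.05, and 1 passed the adjusted threshold. This gene, MCM5 (chr22:35796116-35820494), had 17698, 16053 and 15894 normalized reads in si-CTRL cells and 14017, 12611 and 11816 in si-SAM68 cells. Its log2 fold change was -0.37 (SE 0.09, limma adjusted p = 0.0242). The MCM5 call was lost without si-CTRL replicate 3, si-SAM68 replicate 2 or si-SAM68 replicate 3, with a highest adjusted p of 0.111. It was also lost in a limma fit without the trend option (adjusted p = 0.0921). MCM2 had 17508, 18365 and 18948 normalized reads in si-CTRL cells and 17655, 16383 and 16004 in si-SAM68 cells, with overlap between si-CTRL replicate 1 and si-SAM68 replicate 1 (log2 fold change -0.13, SE 0.07, limma adjusted p = 0.281).

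PCNA, the sliding clamp of the replicative polymerases, had 17701, 18540 and 18897 normalized reads in si-CTRL cells and 17660, 16983 and 18019 in si-SAM68 cells. Its groups overlapped, and the log2 fold change was -0.07 (SE 0.07, limma adjusted p = 0.581). The licensing factors CDC6 and CDT1 had log2 fold changes of -0.13 and -0.19 and GMNN, encoding geminin, one of 0.19 (0.11 without si-CTRL replicate 1), none past the adjusted threshold. CDC25A, the phosphatase that activates CDK2, had a log2 fold change of -0.02.

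In the group of G2/M kinases and regulators, 10 of 12 genes had a positive log2 fold change and 1 passed the test (8.33%, beside 10.7% of all loci). WEE1, the kinase that holds CDK1 inactive by phosphorylating it (chr11:9595228-9611531), had 1576, 1965 and 1907 normalized reads in the si-CTRL libraries and 3243, 3254 and 3548 in the si-SAM68 libraries. Every si-SAM68 value was far above every si-CTRL value. WEE1 rose from 1816 ± 210 to 3348 ± 173 normalized reads, a 1.85-fold increase (log2 fold change 0.89, SE 0.10, limma adjusted p = 0.00100), and had the largest positive log2 fold change of the 59 genes.

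The target of WEE1 and its partner did not pass the test. CDK1 had 10275, 12730 and 12510 normalized reads in si-CTRL cells and 14163, 13495 and 15407 in si-SAM68 cells, without overlap (log2 fold change 0.28, SE 0.10, limma adjusted p = 0.0945). CCNB1, encoding cyclin B1, had 14856, 18684 and 18967 normalized reads in si-CTRL cells and 20749, 19267 and 20868 in si-SAM68 cells, likewise without overlap (log2 fold change 0.22, SE 0.10, limma adjusted p = 0.189). In both genes si-CTRL replicate 1 was the lowest library, and without it the log2 fold changes were 0.18 for CDK1 and 0.11 for CCNB1. The phosphatases that oppose WEE1, CDC25B and CDC25C, had log2 fold changes of 0.32 and 0.18. The CDC25C locus overlaps FAM53C, which had a mean of 1407 normalized reads and a log2 fold change of -0.25.

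PLK1, a kinase of mitotic entry and spindle assembly, went the other way, at 10060, 8964 and 8507 normalized reads in si-CTRL cells and 8112, 7352 and 7433 in si-SAM68 cells. The groups did not overlap, and the log2 fold change was -0.26 (SE 0.08, limma adjusted p = 0.0771), which passed the threshold in DESeq2 alone. FOXM1, the transcription factor of many G2/M genes, had 6384, 5059 and 4377 normalized reads in si-CTRL cells and 5069, 5001 and 4687 in si-SAM68 cells. Its si-SAM68 values lay within the si-CTRL range (log2 fold change -0.08, SE 0.12, limma adjusted p = 0.707), and the sign turned to 0.06 without si-CTRL replicate 1. The FOXM1 locus overlaps that of RHNO1 and TULP3, which had a mean of 7443 normalized reads and a log2 fold change of -0.07. CCNA2 and CCNB2, encoding cyclins A2 and B2, had log2 fold changes of 0.10 and 0.18, and the CCNA2 locus overlaps EXOSC9, whose own value was 0.17. The Aurora kinases and PLK4 had log2 fold changes between 0.01 and 0.08.

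None of the 14 genes of the mitotic checkpoint, the spindle and the chromosomes passed the adjusted threshold in limma or edgeR. DESeq2 called 3 (TTK, CENPF and TOP2A). An unadjusted p under 0.05 was found for 4, all of them higher (28.6%, beside 27.0% of all loci). TOP2A, the topoisomerase that untangles sister chromatids, had 15827, 22887 and 22263 normalized reads in si-CTRL cells and 24396, 25812 and 27304 in si-SAM68 cells. All si-SAM68 values were higher, but si-CTRL replicate 1 lay far below its group, and the log2 fold change was 0.36 (SE 0.13, limma adjusted p = 0.105), or 0.19 without that library. MKI67, encoding the proliferation antigen Ki-67, had 58003, 49532 and 40210 normalized reads in si-CTRL cells and 44616, 54079 and 48883 in si-SAM68 cells. The si-SAM68 values lay within the si-CTRL range, with a log2 fold change of 0.01 (SE 0.13, limma adjusted p = 0.972).

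The checkpoint genes MAD2L1 and TTK and the kinetochore gene CENPF had log2 fold changes of 0.38, 0.26 and 0.32 without overlap between the groups. Without si-CTRL replicate 1 that of MAD2L1 was 0.19, and TTK and CENPF passed the threshold. The checkpoint genes BUB1, BUB1B (at a locus joined with PAK6) and BUB3 lay between -0.15 and 0.07, CENPE, a kinesin of the kinetochore, at -0.15 (-0.087 without si-CTRL replicate 1), and PTTG1, encoding securin, at -0.09. CDC20 and UBE2C, both of the anaphase-promoting pathway, had values of 0.06 and 0.11, and TPX2 and BIRC5, of the spindle and the chromosomal passenger complex, 0.06 and -0.04. When si-CTRL replicate 1 was left out, the sign of PTTG1 turned, to 0.09. TPX2 was then at 0.16 and BIRC5 at -0.12.

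**Figure D3:**
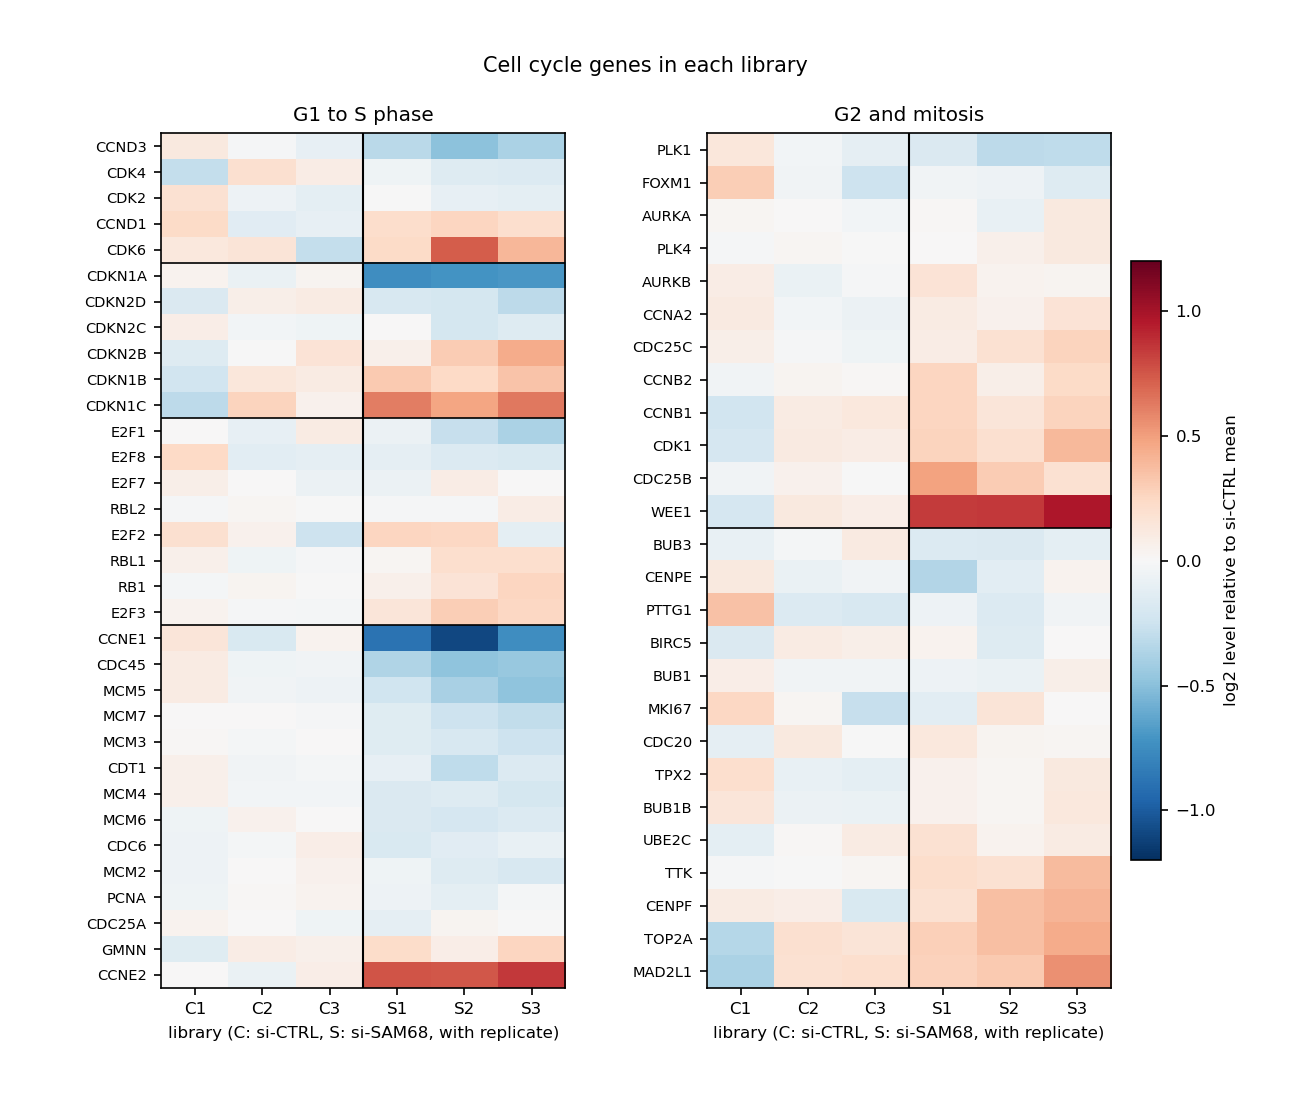
Log2 level of each of the 59 tested genes in each library relative to the mean of the 3 si-CTRL libraries (red higher, blue lower), with si-CTRL replicates as C1 to C3 and si-SAM68 replicates as S1 to S3; black lines separate roles and groups. MCM3 to MCM7 are pale blue in every si-SAM68 library, WEE1, CCNE2, CCNE1 and CDKN1A have the deepest colours, and C1 departs from C2 and C3 in TOP2A, MAD2L1, CDK1 and CCNB1.

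To set G1/S genes against G2/M genes, 18 genes with expression that peaks at G1/S and 24 that peak in G2/M were taken from the tested genes, by textbook knowledge of their phase. Of the 60 genes, 18 were placed in neither set, among them GMNN, E2F3, BUB3 and WEE1. The G1/S genes had a median log2 fold change of -0.16 and 14 of 18 had a negative value. Of these 18 genes, 4 were called (CCNE2 higher, and CCNE1, CDC45 and MCM5 lower), or 22.2% beside 10.7% of all loci. The G2/M genes had a median of 0.07, and 18 of 24 had a positive value, among them MKI67, whose sign turned in some alternatives. None of the 24 was called by limma or edgeR, 8 had an unadjusted p under 0.05 (7 higher, and PLK1 lower), and DESeq2 called 5. These 8 are 33.3%, near the 27.0% of all loci. With single libraries left out, the calls among the G1/S genes numbered between 2 (without si-SAM68 replicate 2) and 6 (without si-CTRL replicate 1), and among the G2/M genes 0, or 2 without si-CTRL replicate 1. The median of all 18849 loci was 0.01, with 9591 positive and 9258 negative values. Without si-CTRL replicate 1 the G2/M median was 0.13, and that of the G1/S genes was -0.16.

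In each library, the mean log2 level of the G1/S genes minus that of the G2/M genes was -0.77, -0.85 and -0.79 for si-CTRL. For si-SAM68 it was -0.997, -1.01 and -1.10. The groups did not overlap, with a difference between their means of -0.23 on the log2 scale. It stayed between -0.26 and -0.20 in all alternatives, which used the same genes. As the genes were chosen with earlier results of these data known, neither the gap nor its stability is a test. Other genes of these phases, described below, had medians of -0.02 (G1/S and S phase) and 0.05 (G2/M). Both sides contributed, the G1/S level being 0.13 lower and the G2/M level 0.10 higher in si-SAM68 cells. A different share of cells in a phase and a different amount of RNA per cell cannot be told apart in bulk RNA, and the share of cells per phase was not measured here.

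**Figure D4:**
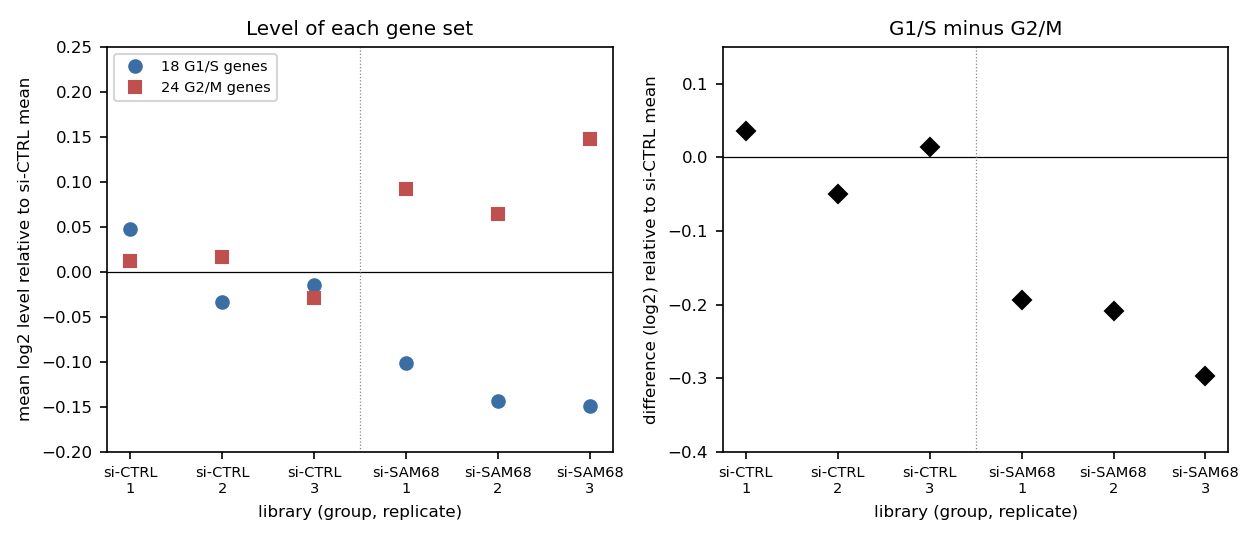
Left, mean log2 level of the 18 G1/S genes (blue circles) and the 24 G2/M genes (red squares) in each library relative to the si-CTRL mean; right, the G1/S minus G2/M difference on the same log2 scale, also relative to the si-CTRL mean. In the si-SAM68 libraries the circles lie between -0.15 and -0.10 and the squares between 0.06 and 0.15, so that the difference on the right is lower in all 3.

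Promoters of both gene groups are known for different sequence elements, E2F sites at G1/S genes and the cell cycle genes homology region (CHR), often with CCAAT boxes, at G2/M genes. Promoter windows from 250 bases before to 50 after the start site, from RefSeq (GRCh38.p14), were found for 44 of the 60 genes. They were searched on both strands for the E2F letters TTTCCCGC, TTTCGCGC, TTTGCCGC and TTTGGCGC, the CHR letters TTTGAA and TTCGAA, and CCAAT, where matches may overlap. E2F letters were in 11 of 14 G1/S genes (78.6%) and 1 of 18 G2/M genes, beside 3.99% of all 27305 genes. The 3 G1/S genes without E2F letters were CCNE1, CDC45 and E2F7, of which CCNE1 and CDC45 were called. None of the 11 G1/S genes with the letters was called in the main fit. The other called G1/S genes, CCNE2 and MCM5, had no promoter window. CHR letters were in 13 of 18 G2/M genes (72.2%) and 1 of 14 G1/S genes, beside 19.5% of all genes. CCAAT was in 68.4% of G1/S and 72.4% of G2/M windows, beside 34.6% of all windows. A match is a description of letters and not a site of binding.

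The promoters of 5 genes are shown for these letters, those of MCM3 and MCM6, helicase genes with lower means, that of CCNE1, the most decreased gene, and those of a pair of G2/M genes whose log2 fold changes had opposite signs (CCNB2 at 0.18 and PLK1 at -0.26). Each is the 250 bases before the start site, 5′ to 3′ on the strand of the gene. Matches to E2F, CHR or CCAAT letters that lie wholly within it are in capitals. In MCM3 another E2F match, TTTCGCGC at position -4 from the start, runs past the stretch and is not capitalized. They are chr6:52284743-52284992 (minus strand) for MCM3, chr2:135876444-135876693 (minus strand) for MCM6, and chr19:29811741-29811990, chr15:59104896-59105145 and chr16:23678639-23678888 (plus strand) for CCNE1, CCNB2 and PLK1. In MCM6, TTTGGCGC and the reverse complement of TTTCGCGC overlap in a pair of places, and in CCNB2 and PLK1 the letters TTTGAA begin 29 bases before the start. None of the letters were in the CCNE1 stretch.
MCM3: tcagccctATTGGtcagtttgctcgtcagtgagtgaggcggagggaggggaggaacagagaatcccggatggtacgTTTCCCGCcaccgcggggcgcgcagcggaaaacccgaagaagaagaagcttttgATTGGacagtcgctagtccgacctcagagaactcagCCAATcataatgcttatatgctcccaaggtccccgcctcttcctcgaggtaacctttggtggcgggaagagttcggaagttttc
MCM6: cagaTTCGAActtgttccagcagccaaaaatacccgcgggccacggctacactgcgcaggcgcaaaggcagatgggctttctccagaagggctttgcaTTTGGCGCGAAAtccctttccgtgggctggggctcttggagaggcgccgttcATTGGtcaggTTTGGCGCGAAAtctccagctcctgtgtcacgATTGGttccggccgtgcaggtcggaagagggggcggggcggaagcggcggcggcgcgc
CCNE1: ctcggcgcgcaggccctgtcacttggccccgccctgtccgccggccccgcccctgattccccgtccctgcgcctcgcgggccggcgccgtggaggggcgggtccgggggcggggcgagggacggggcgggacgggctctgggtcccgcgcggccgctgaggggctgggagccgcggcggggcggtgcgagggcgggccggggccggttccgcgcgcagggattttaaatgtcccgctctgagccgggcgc
CCNB2: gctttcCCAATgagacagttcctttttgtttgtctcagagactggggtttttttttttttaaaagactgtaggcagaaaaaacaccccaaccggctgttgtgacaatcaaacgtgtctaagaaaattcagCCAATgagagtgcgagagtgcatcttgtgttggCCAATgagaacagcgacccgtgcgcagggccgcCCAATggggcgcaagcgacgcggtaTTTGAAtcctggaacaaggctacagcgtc
PLK1: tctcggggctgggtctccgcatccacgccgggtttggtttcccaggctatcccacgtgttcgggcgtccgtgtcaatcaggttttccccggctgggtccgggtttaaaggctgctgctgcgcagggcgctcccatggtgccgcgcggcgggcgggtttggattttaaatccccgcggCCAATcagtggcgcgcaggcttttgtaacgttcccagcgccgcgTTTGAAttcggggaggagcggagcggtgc

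Other genes of the same phases, from lists of textbook genes, were examined in the same fit. Of 44 other G1/S and S phase genes, 7 were called (15.9%, beside 10.7% of all loci), 3 higher and 4 lower, with a median log2 fold change of -0.02. The count was 4 with the replicate block and between 1 and 3 when any library other than si-CTRL replicate 1 was left out, but 11 without that one. The 3 higher were GINS1 (0.55), a helicase subunit, RFC4 (0.31), of the clamp loader, and POLE2 (0.26), a polymerase subunit, of which RFC4 and POLE2 lost the call with the block (limma adjusted p = 0.0570 and 0.0624). The lower genes included UHRF1 (-0.35), a factor of maintenance DNA methylation, and TYMS (-0.33), the enzyme of thymidylate synthesis. TYMS had 6582, 5990 and 5922 normalized reads in si-CTRL cells and 5105, 4795 and 4828 in si-SAM68 cells, and its limma adjusted p was 0.0247.

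Of 54 other G2/M genes, 4 were called (7.41%, beside 10.7% of all loci), and their median was 0.05. The count was 0 without any one of the si-SAM68 libraries, 2 and 1 without si-CTRL replicates 2 and 3, and 7 without si-CTRL replicate 1. G2E3, a ubiquitin ligase, and MELK, a kinase, were higher (0.43 and 0.27), and INCENP, of the chromosomal passenger complex, and HMGB2, a chromatin protein, lower (-0.39 and -0.35). MELK and HMGB2 lost the call with the block (limma adjusted p = 0.0670 and 0.0700). As CDKN1A is a target of p53, 25 known p53 target genes were examined too. Of these, 5 were called, 4 higher and 1 lower, beside 10.7% of all loci. The list was evenly split, with 13 positive and 12 negative log2 fold changes and a median of 0.04. The count was 2 without si-SAM68 replicate 1 or 3, 3 without si-SAM68 replicate 2, and 8 without si-CTRL replicate 1. PLK2, FAS and BTG2 had log2 fold changes of 0.53, 0.57 and 0.55, and GDF15 one of -0.54 (limma adjusted p = 0.0493), whose call was lost with the block (0.0734) and in edgeR (0.0551).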

How the data were processed

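MDA-MB-231 cells transfected with control or SAM68 siRNA were compared in 3 libraries each, grouped by the sample labels. The authors deposited 1 table, in which each value is a signal, the reads counted on a FAST DB locus (hg19) divided by the DESeq2 size factor of the library. The submitters' processing notes name STAR 2.4.0, SAMtools, Picard, FastQC and DESeq2. Whether strand was used in counting is not given in the sources used here. Loci that overlap can therefore share reads, and no value is per gene length. The labels and the methods of the study differ in harvest time, medium and extraction kit, and the labels were followed. In all libraries 100% of the values were whole multiples of 1 step (tolerance 0.01), and these multiples were taken as reads.

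Loci that averaged 10 or more were tested with limma 3.58.1 (R 4.3.3) after a log2 transform with a pseudocount of 1, using eBayes with its trend option, with Benjamini-Hochberg adjustment over all 18849 loci and a threshold of 0.05. Fold changes are on this log2 scale, which understates changes of low genes. Alternatives were pseudocounts of 0.1 and 5, no filter, a minimum mean of 50, TMM factors, quantile normalization, a fit without the trend, a replicate block, leaving out single libraries, and edgeR 4.0.16 and DESeq2 1.42.0 on the reads. edgeR with the block was added after seeing the data. The code was tested on simulated counts.

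The members and gene lists were chosen with earlier results of these data known, so no set test was made. Values per library are given for each called gene and, whatever their p, for CCND1, CDK4, CDKN1A, CDKN1B, RB1, E2F1, CCNE1, MCM2, PCNA, CCNB1, CDK1, FOXM1, PLK1, MKI67 and TOP2A. From the lists of other genes, up to 3 per direction with the smallest p are named, and any other gene was chosen after its values were seen. A gene that these lists would name and a marker are not reported here. Deviations from the group means correlated at 0.105, 0.231 and 0.125 between libraries of the same number and at -0.125 to 0.007 otherwise (18849 loci). The deviations cancel within each group, so these correlations depend on each other. A pairing by number is therefore possible but not settled. The main fit ignored the number, and the replicate block used it.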

Additional observations from a re-analysis of the deposited data

How the results depend on the processing

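CCNE1, CCNE2, CDKN1A and WEE1 were called in all 17 alternatives. The number of called genes, 8, went to 5 without a trend, to 15 in DESeq2 and to between 4 and 15 when 1 library was left out. Without a trend, CCND3, MCM5 and CDKN1C lost the call. The number was 4 without si-SAM68 replicate 2, the library with the high rRNA share, and 5 without si-SAM68 replicate 3. It was 15 without si-CTRL replicate 1, where CCND1, CDK4, CDK6, CDKN2D, MCM6, MCM7, TTK and CENPF were added and CDKN1C was lost. The calls among all 18849 loci moved in the same directions, from 2017 to 899 without a trend and to 2789 in DESeq2. They numbered 808 without si-SAM68 replicate 2, 625 without si-SAM68 replicate 3 and 2839 without si-CTRL replicate 1. With the replicate block 7 genes were called, as also in edgeR with and without it, since CDKN1C (adjusted p = 0.0700 with the block) was lost, and the block changed no other call of these genes. Without si-CTRL replicate 1 the median log2 fold change of the G2/M genes moved from 0.07 to 0.13, and leaving out single libraries gave a range of 0.065 to 0.13. With single libraries left out, the log2 fold change of FOXM1 ran from -0.21 to 0.063, reversed without si-CTRL replicate 1, and that of MKI67 from -0.13 to 0.14. MKI67, at 0.01 with all libraries, reversed to -0.026 after quantile normalization, -0.13 without si-CTRL replicate 3, -0.06 without si-SAM68 replicate 2 and -0.000614 in DESeq2. The cause was not tested. Of 357 values of 21 named genes under the alternatives, 328 kept their direction and side of the threshold, 20 lost the call and 4 gained it. The 21 include genes not called in the main fit, which could keep their side by remaining uncalled. All losses fell on CDC45, MCM5, CCND3 and CDKN1C, which were called in 16, 13, 12 and 7 of the 17 alternatives. With 3 libraries per group, the smallest standard errors here were near 0.07 on the log2 scale, and smaller differences could not be told from the spread. No library held under 52625492 reads, so that depth limits only genes of few reads such as CCND2.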
